A study of Mus musculus with 12 samples.

Results

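The genes described here are 10 replication licensing genes: Mcm2, Mcm3, Mcm4, Mcm5, Mcm6, Mcm7, Mcm10, Cdc6, Cdt1 and Gmnn. They were picked by gene symbol from the 23420 genes of the count files, and all 10 were among the 14770 genes that passed the filter on low counts. The series follows mouse embryonic fibroblasts (MEF) that are turned into induced pluripotent stem cells (iPSC), with 3 RNA-seq libraries in each of 4 groups. MEF are the starting cells, Stage1 is day 6, Stage2 is a further 4 days after day 6, and iPSC are established iPSC. The series text says that Stage1, Stage2 and iPSC cells were collected by sorting on Oct4-GFP and that MEF were not; Oct4-GFP is a fluorescent reporter of the pluripotency gene Pou5f1. The Stage1 and Stage2 values describe reporter-positive cells and not whole cultures. All 12 libraries carry the strain label mixed C57BL/6 x 129. The reprogramming factors, their delivery, the age of the embryos and the origin of the replicates are not given in the sources used here. The spread on which p-values rest is that between these libraries, which may be technical.

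The libraries are grouped by title, because the stage and the sorting marker among their other labels disagree with the title in all 12 libraries. Marker genes set the libraries titled MEF apart: the summed level of 8 fibroblast markers was 27777 to 33964 CPM (read counts scaled to 1e+06 per library) in them, 13.6 to 25.9 at Stage1, 121 to 190 at Stage2 and 66.4 to 76.4 in iPSC. The summed level of 6 pluripotency markers was 3.02 to 4.08 CPM in MEF and 1771 to 2678 in the other libraries. The summed level of 4 macrophage markers was 94.1 to 107 CPM in MEF and 7.41 to 29.1 in the others. Lyz2 made up most of it in MEF (mean 78.5 CPM), and Cd68 was higher at Stage2 (25.0) than in MEF (8.16). The summed level of 4 endothelial markers was 8.50 to 17.2 CPM in all groups, but its genes moved in opposite directions. From MEF to Stage1 the mean of Emcn went from 10.1 to 0.137 CPM and that of Tek from 1.94 to 10.7. The fibroblast and pluripotency markers do not order Stage1, Stage2 and iPSC, so the direction between those 3 groups rests on the titles. Gene totals ran from 8916223 to 19011944 reads. Reads outside annotated genes made up 8.86% to 9.42% of reads in MEF and 35.0% to 53.4% in the other groups. Whether that gap has a part in the differences from MEF was not tested.

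Licensing is the step that prepares each origin of replication to fire a single time per cell cycle. The origin recognition complex and Cdc6 sit on DNA, and Cdt1 brings in the ring of Mcm2 to Mcm7, which is the core of the replicative helicase. Mcm10 acts later, when the loaded helicase is switched on, and geminin, the product of Gmnn, binds Cdt1 and blocks further loading until mitosis. Many of these genes are textbook targets of E2F transcription factors, which are held back by the retinoblastoma family in resting cells. Pluripotent mouse cells are known for a short G1 phase.

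The promoters are shown as background to the E2F targets named above. Whether their letters have a part in the levels of these genes was not tested. RefSeq promoter entries (GRCm38.p6, 250 bases before to 50 bases after the start) matched 8 of the 10 genes by symbol, all but Mcm4 and Gmnn. The letters searched for E2F were TTTCCCGC, TTTCGCGC, TTTGCCGC and TTTGGCGC, on both strands. The 250 bases before the start follow for Mcm5 (chr8:75109259-75109508, plus strand) and Mcm6 (chr1:128359706-128359955, minus strand), which hold such matches, and for Mcm10 (chr2:5012792-5013041, minus strand), which holds none in its 300 bases. Each is written 5′ to 3′ on the strand of the gene, and capitals mark the E2F letters.
Mcm5: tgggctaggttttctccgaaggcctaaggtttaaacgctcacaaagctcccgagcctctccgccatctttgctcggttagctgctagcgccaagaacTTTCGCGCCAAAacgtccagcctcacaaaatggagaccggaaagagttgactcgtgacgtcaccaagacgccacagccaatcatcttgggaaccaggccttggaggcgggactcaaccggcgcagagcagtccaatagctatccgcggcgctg
Mcm6: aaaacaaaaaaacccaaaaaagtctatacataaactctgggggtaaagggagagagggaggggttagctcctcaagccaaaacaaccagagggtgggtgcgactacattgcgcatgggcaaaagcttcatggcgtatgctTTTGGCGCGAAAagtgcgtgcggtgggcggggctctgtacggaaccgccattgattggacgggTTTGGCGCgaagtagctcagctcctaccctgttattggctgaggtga
Mcm10: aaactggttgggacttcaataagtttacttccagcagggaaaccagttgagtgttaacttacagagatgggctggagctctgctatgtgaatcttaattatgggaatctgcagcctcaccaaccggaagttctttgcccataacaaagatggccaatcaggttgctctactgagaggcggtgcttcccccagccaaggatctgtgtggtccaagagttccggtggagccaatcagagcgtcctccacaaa

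Mcm5 has 2 overlapping matches on opposite strands, TTTCGCGC at -153 to -146 from the start and TTTGGCGC at -149 to -142. Mcm6 has a like overlapping pair, TTTGGCGC at -110 to -103 and TTTCGCGC at -106 to -99, and a further TTTGGCGC at -47 to -40. Among the other members Mcm3 has its 2 matches after the start, at 20 to 27 and 39 to 46, and Cdt1 has 1 at 33 to 40, counting the start site as base 1. Mcm7 has matches at -165 to -158 and at 17 to 24 of the upstream of its 2 starts, and Cdc6 has 1 at -138 to -131. In all, 6 of the 8 member genes with an entry held an E2F match, beside 2.265% of all 32851 promoters in the table and 4.50% of the 10733 tested genes with an entry. The other 2 were Mcm2 and Mcm10. The Mcm10 entry ends, after the bases printed above, in tttggcg, which is TTTGGCGC without its last letter. The base that follows lies outside the entry and was not searched, so the absence of a match in Mcm10 depends on where the entry ends. The letters CCAAT were found in 6 of the 8, beside 43.22% of the tested genes. TTTGAA or TTCGAA, the letters of the cell-cycle homology region, were found in 2 of the 8, beside 16.16% of the tested genes. These are matches of letters, and no binding was measured.

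From MEF to Stage1 all 10 genes rose, and none of the 3 MEF libraries overlapped a Stage1 library for any of them. How many of all tested genes were without overlap here was not counted. By the edgeR test, which is a different measure, 80.4% of them differed between these groups, 44.2% being higher at Stage1 and 36.1% lower. The lack of overlap is therefore not read here as a trait of the members. Together the 10 genes took 0.0245% ± 0.00505 of all gene counts in the MEF libraries (SD, n = 3). Their share was 0.301% ± 0.00715 at Stage1, 0.294% ± 0.0121 at Stage2 and 0.350% ± 0.0254 in iPSC. In bulk RNA, fewer cycling cells and less of each transcript per cell cannot be told apart.

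**Figure D1:**
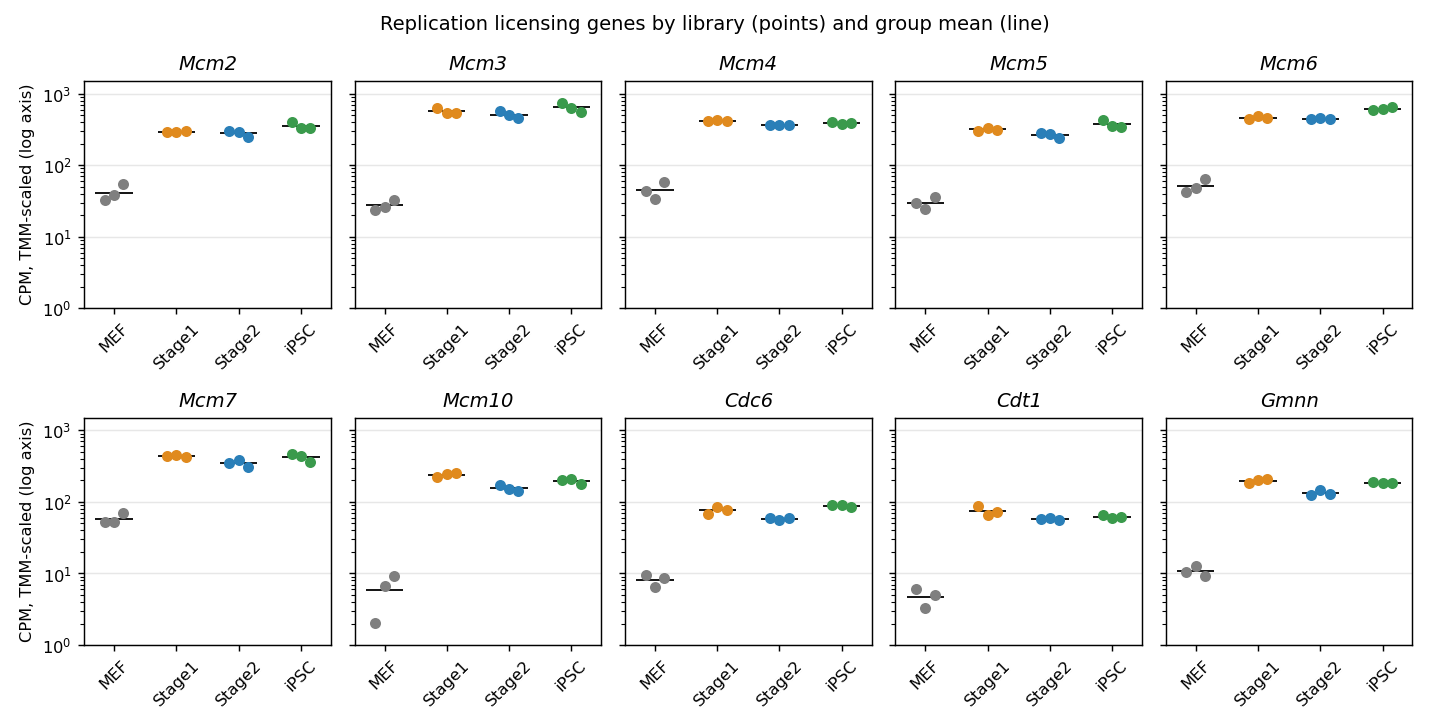
Level of each of the 10 genes in every library, as TMM-scaled CPM on a log axis, by group on the horizontal axis. Points are libraries and lines are means of 3 libraries. In each panel the 3 MEF points lie below the other 9.

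Mcm10, the factor that helps to activate the loaded helicase, differed most. Its MEF libraries stood at 2.00, 6.62 and 9.23 TMM-scaled CPM, the scale of all levels below, and its Stage1 libraries at 222, 243 and 256. The log2 fold change was 5.25 ± 0.299 (SE), a 38.1-fold difference (edgeR adjusted p = 4.93e-11). The MEF libraries held 16, 99 and 153 Mcm10 reads, so the fold rests on few reads in MEF replicate 1, and with that library left out the log2 fold change was 4.90.

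Mcm3, a helicase subunit, stood at 23.9, 25.7 and 32.6 CPM in MEF and at 626, 536 and 535 at Stage1. This was the widest separation among the 6 helicase subunits, 20.6-fold (log2 4.36 ± 0.173, edgeR adjusted p = 2.28e-13). Mcm2, at the other end, went from 32.6, 37.8 and 54.3 CPM to 294, 291 and 302. Its log2 fold change was 2.82 ± 0.174, or 7.08-fold (edgeR adjusted p = 7e-11). The 4 remaining subunits lay between them, at log2 fold changes of 3.21 (Mcm4), 3.40 (Mcm5), 3.15 (Mcm6) and 2.90 (Mcm7).

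The loading factors and their inhibitor rose as well. Cdc6, the ATPase that works with the origin recognition complex, had 9.52, 6.55 and 8.62 CPM in MEF and 68.0, 84.2 and 77.1 at Stage1, a 9.36-fold difference. Cdt1, the carrier of the helicase ring, had 6.01, 3.34 and 4.94 CPM in MEF and 87.6, 65.9 and 72.7 at Stage1, a 16.2-fold difference. Gmnn, the inhibitor of Cdt1, had 10.5, 12.7 and 9.17 CPM in MEF and 186, 199.9 and 207 at Stage1, an 18.3-fold difference. Cdt1 and its inhibitor were higher side by side, with log2 fold changes of 4.01 ± 0.195 for Cdt1 and 4.19 ± 0.152 for Gmnn.

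The background in this comparison was wide, since 44.2% of the 14770 tested genes were called higher at Stage1 than in MEF (edgeR quasi-likelihood test, Benjamini-Hochberg adjusted p under 0.05). Among the members 10 of 10 were called higher. Their median log2 fold change was 3.32, and that of all tested genes was 0.27. Against MEF, 10 of 10 members were also called higher at Stage2 (44.6% of all tested genes) and in iPSC (44.9%), with median log2 fold changes of 3.12 and 3.61 beside 0.25 and 0.29 for all tested genes. The 3 comparisons share the MEF libraries. All 30 of these calls held in each of the 20 alternatives tried, single libraries left out included.

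From Stage1 onward the levels of the 10 genes lay close together beside their distance from MEF. Group means still differed, from 155 CPM at Stage2 to 240 at Stage1 for Mcm10 and from 58.4 at Stage2 to 88.9 in iPSC for Cdc6. Placed on the log2 distance from the MEF mean to the iPSC mean, Stage1 lay at 88.2% (Mcm6) to 107% (Cdt1) and Stage2 at 82.4% (Cdc6) to 96.9% (Mcm4). For each of the 10 genes the Stage2 mean was below the Stage1 mean and below the iPSC mean, except that under scaling by gene totals the fitted differences from Stage1 turned positive for Mcm2, Mcm3, Mcm4 and Mcm6 and the difference of Mcm4 from iPSC turned to -0.0028. Only some of these differences passed the test.

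**Figure D2:**
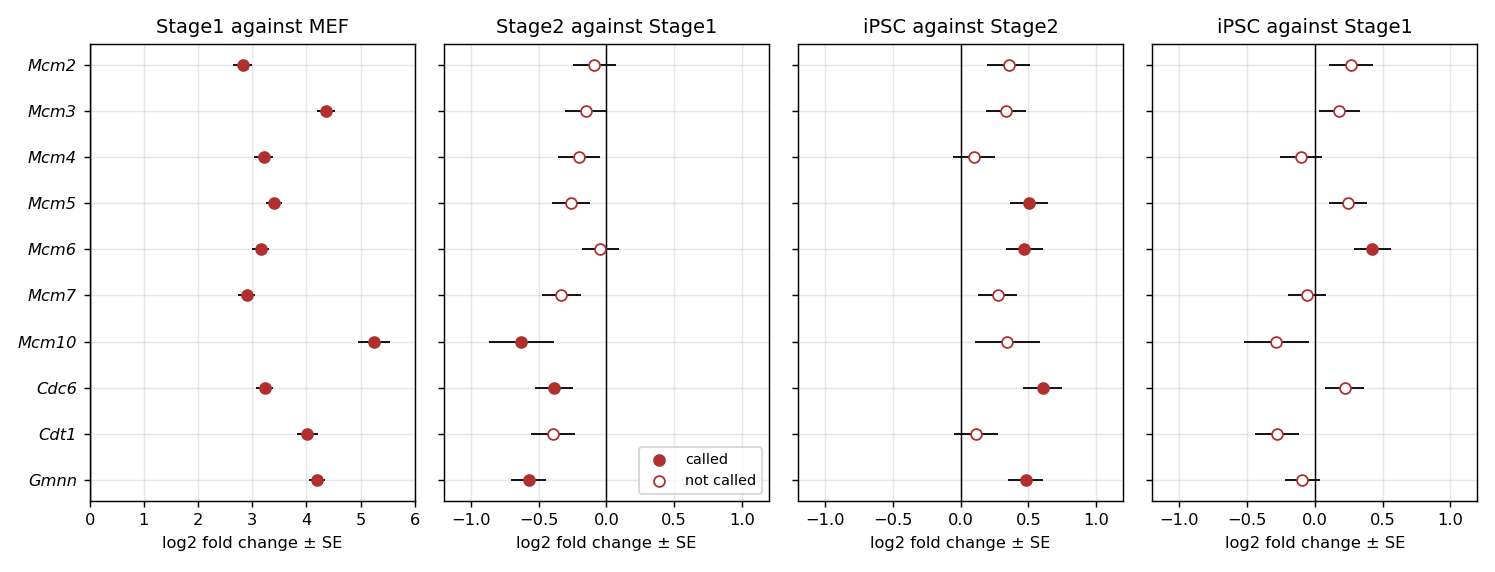
Log2 fold change with its SE for each gene in 4 comparisons, each panel with its own horizontal scale. Filled points passed the edgeR test and open points did not: from left to right, 10 genes higher, 3 lower, 4 higher and 1 higher.

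At Stage2, 3 of the 10 genes fell relative to Stage1 and none rose. In the background 19.8% of tested genes were called lower and 20.6% higher. No member was higher at an unadjusted edgeR p under 0.05 or by DESeq2. DESeq2 called 2 lower, beside 2711 of the 15171 genes it tested. Gmnn fell from 186, 199.9 and 207 CPM to 125, 146 and 128. The 2 groups did not overlap, and the log2 fold change was -0.57 ± 0.129 (edgeR adjusted p = 0.00196). It was called in all 20 alternatives, with adjusted p from 0.000313 to 0.0292.

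Mcm10 fell from 222, 243 and 256 CPM to 171, 152 and 144, again without overlap. Its log2 fold change was -0.63 ± 0.241 (edgeR adjusted p = 0.0464), and 5 of 20 alternatives called it. Cdc6 fell from 68.0, 84.2 and 77.1 CPM to 59.4, 56.6 and 59.3, with a log2 fold change of -0.39 ± 0.143 (edgeR adjusted p = 0.0384), and 8 of 20 alternatives called it. With the replicate number as a block, neither Mcm10 nor Cdc6 was called. Gmnn alone was called when any of these libraries was left out: Stage1 replicate 2 or 3, Stage2 replicate 1, 2 or 3, or iPSC replicate 2. Without MEF replicate 3, 5 members were called lower, beside 3471 of 15220 tested genes.

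The other 7 genes did not pass. Cdt1 stood at 87.6, 65.9 and 72.7 CPM at Stage1 and 57.0, 59.2 and 56.1 at Stage2 (log2 -0.39, 95% interval -0.74 to -0.05, edgeR adjusted p = 0.0623). Mcm7 stood at 445, 446 and 419.9 CPM at Stage1 and 355, 382 and 305 at Stage2 (log2 -0.33, 95% interval -0.63 to -0.03, edgeR adjusted p = 0.0721). In both genes every Stage2 library was below every Stage1 library. Intervals of the 5 remaining helicase subunits all spanned 0, from Mcm6 (log2 -0.04, 95% interval -0.33 to 0.24) to Mcm5 (log2 -0.26, 95% interval -0.56 to 0.03). These intervals are for single genes and are not adjusted for the number of genes.

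Every Stage2 library was below every Stage1 library for 7 of the 10 genes, beside 30.2% of all tested genes. Scaling matters here. When libraries are scaled by their gene totals in place of TMM (trimmed mean of M-values), the median of all genes shifts by 0.204 on the log2 scale, the number of members without overlap is 3 of 10 beside 20.4% of genes, and only Gmnn is called. The fibroblast markers, 121 to 190 CPM at Stage2 and 13.6 to 25.9 at Stage1, and the reads outside genes, 47.4% to 53.4% and 38.1% to 45.2%, move with this comparison, and their part in it was not tested.

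In iPSC, 4 of the 10 genes were higher than at Stage2 and none was lower. In the background 9.21% of tested genes were called higher and 8.87% lower. No member was lower at an unadjusted edgeR p under 0.05 or by DESeq2. DESeq2 called 4 higher, beside 1455 of the 14733 genes it tested. Cdc6 rose from 59.4, 56.6 and 59.3 CPM to 91.2, 91.7 and 83.9. Its log2 fold change was 0.61 ± 0.143 (edgeR adjusted p = 0.00849), and all 20 alternatives called it.

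Gmnn rose from 125, 146 and 128 CPM to 188, 185 and 184, and the 3 iPSC libraries lay close together. Its log2 fold change was 0.48 ± 0.129 (edgeR adjusted p = 0.017). Mcm5, a helicase subunit, rose from 277, 270.4 and 243 CPM to 424, 358 and 340.1, with a log2 fold change of 0.51 ± 0.139 (edgeR adjusted p = 0.0194). Gmnn and Mcm5 were each called in 17 of 20 alternatives. Mcm6, another subunit of the ring, rose from 442, 451 and 446 CPM to 596, 609 and 649, with a log2 fold change of 0.47 ± 0.137 (edgeR adjusted p = 0.0262), called in 13 of 20. Without Stage2 replicate 3 only Cdc6 was called, and without Stage2 replicate 1, iPSC replicate 1 or iPSC replicate 2, or under scaling by gene totals, the number of members called higher was 2.

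The 6 genes that did not pass had log2 differences from 0.10 (Mcm4) to 0.35 (Mcm2). Mcm2 went from 299, 287 and 248 CPM to 407, 329.6 and 329.9 (95% interval of the log2 difference 0.02 to 0.69, edgeR adjusted p = 0.136). Mcm4 went from 370.3, 362 and 362 CPM to 404, 380.3 and 386, and its 95% interval was -0.23 to 0.42. Cdt1 went from 57.0, 59.2 and 56.1 CPM to 65.0, 59.9 and 61.7, and its 95% interval was -0.23 to 0.46. Those of Mcm3, Mcm7 and Mcm10 were 0.02 to 0.65, -0.03 to 0.57 and -0.17 to 0.85. Every iPSC library was above every Stage2 library for 8 of the 10 genes, beside 24.9% of all tested genes, and for 6 of 10 beside 19% under scaling by gene totals. The fibroblast markers, of which 7 of 8 were called lower in iPSC (121 to 190 CPM summed at Stage2 and 66.4 to 76.4 in iPSC), and the reads outside genes, 47.4% to 53.4% and 35.0% to 44.3%, move with this comparison, and their part in it was not tested.

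Set directly against Stage1, iPSC differed in 1 member. Mcm6 was higher, at 596, 609 and 649 CPM beside 436, 492 and 455, with a log2 fold change of 0.42 ± 0.137 (edgeR adjusted p = 0.0205). It was called in 17 of 20 alternatives and was lost without Stage1 replicate 1, Stage1 replicate 3 or iPSC replicate 3, which left 0 members called. In the background 21.3% of tested genes were called higher in iPSC and 18.1% lower. No member was called lower, none was at an unadjusted edgeR p under 0.05, and DESeq2 called none lower. The 95% intervals of the other 9 members spanned 0. The widest was that of Mcm10 (log2 -0.29, -0.79 to 0.22), and that of Gmnn was -0.36 to 0.18 around -0.09.

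Cdt1 and its inhibitor can be compared within a library, where scaling plays no part. There were 0.571, 0.263 and 0.539 Cdt1 reads per Gmnn read in MEF, 0.471, 0.330 and 0.351 at Stage1, 0.456, 0.406 and 0.439 at Stage2 and 0.346, 0.324 and 0.336 in iPSC. The lowest and the highest of the 12 ratios were both in MEF, and the iPSC libraries were all below those of Stage2. No difference among the 4 groups was found by an exact permutation test of the log2 ratio (p = 0.518, 369600 assignments of the 12 libraries). Without MEF replicate 2, which had the lowest ratio, that exact permutation p was 0.0138. Over the 9 libraries other than MEF the exact permutation p was 0.118. For iPSC against Stage2 it was 0.1, the smallest that 3 against 3 libraries allow.

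**Figure D3:**
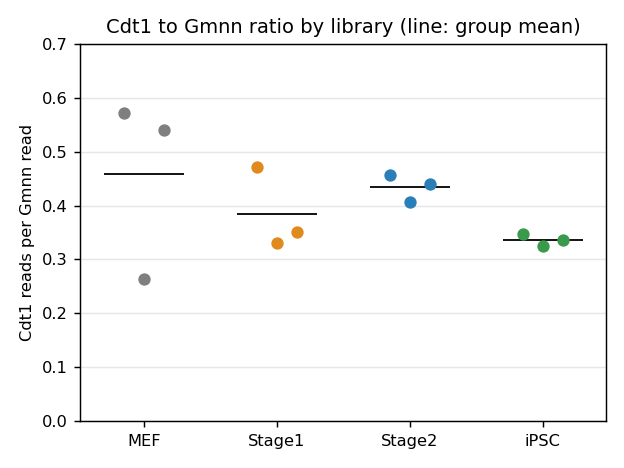
Cdt1 reads per Gmnn read in each library, by group. Points are libraries and lines are means of 3 libraries: the means are 0.458 in MEF, 0.384 at Stage1, 0.434 at Stage2 and 0.336 in iPSC, with the widest spread in MEF.

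The helicase ring holds each of its 6 subunits in equal number, so the transcripts were also compared per length. Levels were divided by the length of all exons of the basic transcripts in GENCODE vM21 (GRCm38, the same build as mm10), and each subunit was taken as a share of the 6. In MEF, Mcm7 made up 26.7% ± 0.852 (SD, n = 3) of the summed counts per kilobase and Mcm3 12.3% ± 0.692. At Stage1 the order of these 2 was the opposite, with 20.0% ± 0.296 for Mcm7 and 25.4% ± 2.06 for Mcm3. Mcm7 stayed lower than in MEF at Stage2 (18.1% ± 1.26) and in iPSC (17.3% ± 1.08), and Mcm3 stayed at 25.9% ± 1.47 and 25.8% ± 1.58. The share of Mcm2 was 16.5% ± 1.56 in MEF and 11.9% ± 0.457, 12.7% ± 0.414 and 12.9% ± 0.630 in the 3 later groups.

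By an exact permutation test over the 4 groups, adjusted over the 6 subunits, the shares of Mcm7 (adjusted p = 0.00468), Mcm2 (0.00974) and Mcm3 (0.0309) differed. Those of Mcm4 (0.0848), Mcm5 (0.109) and Mcm6 (0.113) did not pass. Over the 9 libraries other than MEF none of the 6 passed in this exact permutation test, with adjusted p from 0.0857 to 0.85. The share of Mcm4 there was 15.9% ± 0.467 at Stage1, 15.7% ± 0.923 at Stage2 and 13.3% ± 0.773 in iPSC, and that of Mcm6 was 14.3% ± 0.902, 15.8% ± 1.08 and 17.4% ± 2.14.

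**Figure D4:**
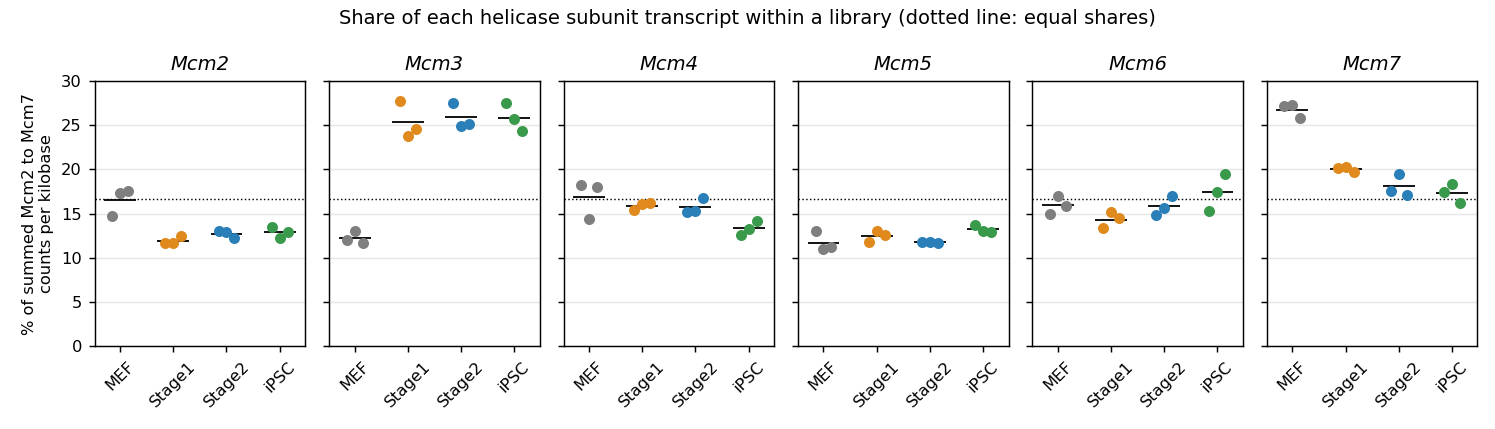
Share of each helicase subunit in the summed counts per kilobase of Mcm2 to Mcm7, in percent, by group. Points are libraries, lines are means of 3 libraries and the dotted line marks equal shares; Mcm7 has a mean of 26.7% in MEF and 17.3% in iPSC, and Mcm3 has a mean of 12.3% in MEF and of 25.4% to 25.9% in the other groups.

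Per kilobase, the spread among the ring subunits was moderate in each group. The highest of the 6 was 2.28 times the lowest in MEF, 2.13 times at Stage1, 2.2 times at Stage2 and 2.01 times in iPSC. Mcm7 led in MEF with 19.7 ± 3.38 CPM per kilobase (SD, n = 3), and Mcm3 led in the other groups with 187 ± 17.2, 168 ± 18.5 and 212 ± 30.9. Gmnn stood among the ring subunits on this scale, with 9.08 ± 1.5 CPM per kilobase in MEF and 166 ± 9.04 at Stage1. Its Stage1 mean lay below that of Mcm3 (187 ± 17.2) and above that of Mcm7 (148 ± 4.99). Each gap was larger than the SD of either gene. Next came Mcm4 (117 ± 2.68), Mcm6 (105 ± 6.53), Mcm5 (91.5 ± 4.47) and Mcm2 (87.7 ± 1.65), where Mcm5 and Mcm2 did not differ beyond their spread.

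The loading factors and Mcm10 were the lowest members per kilobase in all 4 groups. At Stage1, Mcm10 stood at 48.5 ± 3.50 CPM per kilobase, Cdt1 at 34.4 ± 5.07 and Cdc6 at 16.0 ± 1.70. In MEF all 3 were near the low end, at 1.2 ± 0.738 for Mcm10, 2.18 ± 0.614 for Cdt1 and 1.72 ± 0.318 for Cdc6. Their ranges of mean ± SD overlapped, though Cdt1 lay above Mcm10 by more than the SD of either. Length bears on some of these levels: Mcm6 has 4375 exonic bases in all but 2910 in its longest principal transcript, and Cdc6 has 4783 and 2559. With principal transcripts Mcm6 made up 22.1% ± 1.35 of the ring in MEF and 24.0% ± 2.71 in iPSC, while Mcm3 made up 11.3% ± 0.596 and 23.7% ± 1.68. On that length Mcm6 and not Mcm3 was the higher in iPSC, by less than the SD of either, and the tests of the shares kept their side of the threshold.

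The genes lie apart in the genome. In GRCm38, Mcm3 (chr1:20802968-20820312) and Mcm6 (chr1:128331590-128359664) share chromosome 1, and Mcm5 (chr8:75109569-75128439) and Cdt1 (chr8:122568015-122573554) share chromosome 8. The rest are Mcm10 (chr2:4989714-5012791), Mcm7 (chr5:138164583-138172422), Mcm2 (chr6:88883474-88898780), Cdc6 (chr11:98907801-98923940), Gmnn (chr13:24751845-24761923) and Mcm4 (chr16:15623897-15637400). Mcm7 carries Mir25, Mir93 and Mir106b within its span. It also overlaps Ap4m1 by 421 bases and Cops6 by 64 bases, both on the opposite strand. Cdt1 lies within the span of the gene model Gm20388, which is on the same strand, so strand alone would not separate their reads. Strandedness of the counting is not given in the sources used here. Reads in those overlaps cannot be assigned with certainty, which bears on the levels of Mcm7 and Cdt1 and on the Cdt1 to Gmnn ratio.

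Other genes of the pathway were read from lists chosen with earlier results of these data known, and counts are given with the median log2 fold change. The background for the counts of Stage1 against MEF is 44.2% of all tested genes higher and 36.1% lower. Between MEF and Stage1, of 8 origin recognition and loading genes 7 were higher and 0 lower (median 1.66), led by Orc1, the subunit that binds Cdc6, at 3.76 ± 0.163, and by Orc6 at 2.84 ± 0.182. Of 12 origin firing genes all were higher (median 3.28), with Recql4 at 4.58 ± 0.344 and Ticrr at 3.59 ± 0.195. All 4 further MCM family genes and MCM binders were higher (median 2.47), with Mcmdc2 at 4.69 ± 0.473 and Mcm8 at 3.04 ± 0.295. The MEF libraries held 0, 9 and 3 Mcmdc2 reads and 5, 13 and 44 Recql4 reads, so the folds of both rest on few reads.

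All 20 elongation genes were higher at Stage1 than in MEF (median 2.40), with the polymerase subunits Pola1 at 4.59 ± 0.139 and Pole at 3.76 ± 0.204. All 20 mitosis genes were higher as well (median 3.09), with Cenpf at 4.83 ± 0.197 and Bub1b at 4.72 ± 0.185. The proliferation marker Mki67 stood at 81.9 ± 17.9 CPM in MEF (SD, n = 3), and its levels were 1283 ± 19.8 at Stage1, 1212 ± 178 at Stage2 and 1082 ± 121 in iPSC. The part that the share of cycling cells has in the levels of the licensing genes was not tested.

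Genes of the turnover list and of the E2F list went in different directions. Of 7 tested turnover genes 4 were higher at Stage1 than in MEF and 2 lower (median 1.82). Fbxo5, an inhibitor of the ubiquitin ligase that marks geminin for destruction, was higher at 3.99 ± 0.163, and so was Dtl, which directs Cdt1 to a Cul4 ubiquitin ligase, at 2.73 ± 0.141. Cul4a was lower at -0.92 ± 0.129 and Fzr1 at -0.63 ± 0.259. The call of Fzr1 was lost under scaling by gene totals and without MEF replicate 3 or Stage1 replicate 1, 2 or 3, which left 1 gene lower. Of 13 E2F and pocket protein genes 8 were higher and 3 lower (median 0.93). E2f2 was higher at 3.19 ± 0.297 and E2f8 at 2.34 ± 0.234, and Rbl2 and E2f6 were lower at -1.41 ± 0.172 and -1.09 ± 0.157. The remaining lower gene was E2f1, at -0.46 ± 0.208 (edgeR adjusted p = 0.0498).

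**Figure D5:**
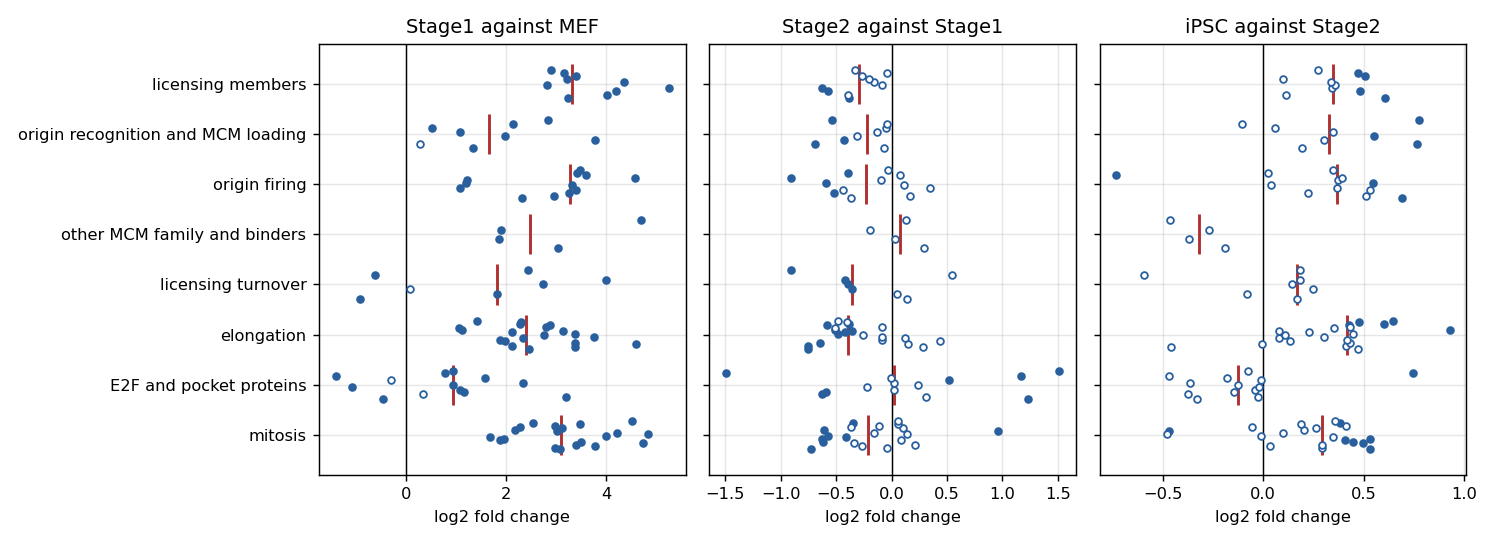
Log2 fold change of each tested gene of 8 lists in 3 comparisons, each panel with its own scale. Filled points passed the edgeR test, open points did not, and red lines are list medians: from left to right, the members' medians are 3.32, -0.30 and 0.35.

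Between Stage1 and Stage2, 4 of the 13 E2F and pocket protein genes were higher and 3 lower (median 0.02). Of all tested genes 20.6% were higher and 19.8% lower, so moving both ways is not particular to this list. The same shares are the background for the other list counts of this comparison. The partner proteins of E2F moved in opposite directions: Tfdp2 rose from 55.7 ± 1.26 to 159 ± 11.9 CPM (SD, n = 3; log2 1.51 ± 0.123), and Tfdp1 fell from 149 ± 8.29 to 52.9 ± 7.13 CPM (log2 -1.49 ± 0.141). E2f1 rose from 7.76 ± 1.23 to 18.3 ± 1.85 CPM (log2 1.23 ± 0.206). E2f3 fell, at a log2 fold change of -0.63 ± 0.175, a call lost under scaling by gene totals, which left 1 gene of the list lower. The members' own median in this comparison was -0.30, beside 0.02 for all tested genes.

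Of 20 elongation genes 9 were lower and 0 higher at Stage2 by edgeR (median -0.39), with 1 higher at an unadjusted p under 0.05 and 1 by DESeq2. Pcna, the sliding clamp, fell from 681 ± 30.5 to 403 ± 10.5 CPM (log2 -0.76 ± 0.149), and the flap nuclease Fen1 fell by as much on the log2 scale (-0.76 ± 0.166). Under scaling by gene totals 3 elongation genes were lower, and without Stage1 replicate 2, Stage2 replicate 2 or Stage2 replicate 3 there were 4, 4 and 5. Of 20 mitosis genes 7 were lower and 1 higher (median -0.21), with Aurka at -0.73 ± 0.137 and Kif23 at 0.96 ± 0.152. Under scaling by gene totals 3 mitosis genes were lower and 2 higher, and 4 were lower without Stage1 replicate 2 or 3. Of 7 turnover genes 4 were lower (median -0.36), among them Skp2, a ligase subunit that targets Cdt1, at -0.91 ± 0.148. That count was 1 under scaling by gene totals and 1 or 2 without Stage1 replicate 1, 2 or 3 or Stage2 replicate 2 or 3.

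Of the 12 firing genes 4 were lower at Stage2 (median -0.23), with Recql4 at -0.91 ± 0.272 and Gins4 at -0.59 ± 0.147. The count was 2 under scaling by gene totals and without Stage2 replicate 3. Of the 8 recognition and loading genes 3 were lower (median -0.23), with Lrwd1 at -0.69 ± 0.191 and Orc6 at -0.54 ± 0.168. None was lower under scaling by gene totals, and 1 was without Stage1 replicate 2 or 3 or Stage2 replicate 1 or 2. None of the 4 further MCM genes was called by edgeR, also at an unadjusted p under 0.05, or by DESeq2 (median 0.08). Mki67 was not called either (log2 -0.08 ± 0.157).

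Between Stage2 and iPSC, 3 of the 8 recognition and loading genes were higher (median 0.32), with Orc6 at 0.78 ± 0.168 and Lrwd1 at 0.76 ± 0.191. The background for the list counts of this comparison is 9.21% of all tested genes higher and 8.87% lower. Of the 12 firing genes 2 were higher and 1 lower (median 0.37). Cdc45, a partner of the helicase ring, was higher at 0.69 ± 0.154, and Ticrr was lower at -0.73 ± 0.171. The number higher was 1 without Stage2 replicate 2 or 3 or iPSC replicate 1 or 2, 4 without MEF replicate 2 and 6 without MEF replicate 3, and Ticrr was not called without iPSC replicate 1. Of the elongation genes 5 of 20 were higher (median 0.41), with Rfc2 at 0.93 ± 0.163. That count fell to 2 or 3 without any single library of Stage2 or iPSC or without Stage1 replicate 2 or 3, and rose to 10 without MEF replicate 3. Of all tested genes, 1556 of 15256 were higher without MEF replicate 2 and 1984 of 15220 without MEF replicate 3.

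Of the mitosis genes 6 were higher and 1 lower in iPSC (median 0.29). Aurka was higher at 0.53 ± 0.137, and Kif23 was lower at -0.47 ± 0.151. The number higher was 1 under scaling by gene totals. It was 0 without Stage2 replicate 1 or iPSC replicate 2, 1 without Stage2 replicate 2 and 3 without iPSC replicate 1 or 3, and Kif23 was lost without any single Stage1, Stage2 or iPSC library. The E2F list had 1 gene higher, Tfdp1 at 0.74 ± 0.140, and 0 lower (median -0.12), with 2 lower at an unadjusted p under 0.05 and 1 by DESeq2. No gene of the turnover list (median 0.17) or of the further MCM genes (median -0.32) was called by edgeR or DESeq2. At an unadjusted p under 0.05, 1 turnover gene was lower, and Mki67 was not called (log2 -0.16 ± 0.158). The members' median was 0.35, beside 0.04 for all tested genes.

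Libraries can be ordered by the mean of the 10 standardised log2 levels, and other genes by how closely they follow it. Over the 12 libraries the closest genes were Brca1 (Pearson r = 0.998), Parp1, Eme1, Melk and Snrnp70 (all 0.998). Over the 9 libraries other than MEF they were Eif4a3 (0.992), Rnf187 (0.991), Snw1 (0.987), Sars (0.986) and Ndufa9 (0.985), and none is on both lists. These values describe points that share libraries and depth, and over 12 libraries they mostly reflect the distance between MEF and the rest. Each member followed the mean of the other 9 at r from 0.981 (Mcm10) to 0.998 (Mcm3) over the 12 libraries. Over the 9 libraries other than MEF the values ran from 0.455 (Cdt1) and 0.468 (Mcm6) to 0.902 (Mcm5).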

How the data were processed

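RNA from 12 mouse libraries was extracted with the miRNeasy kit and made into Illumina libraries, per the labels' protocols. The authors deposited raw counts of whole reads per gene symbol. Per the submitters' processing notes, the tools were TopHat2 2.0.9, Bowtie2 2.2.6, SAMtools 0.1.19, HTSeq 0.5.4p3 and DESeq2 1.12.4 and the build was mm10. Their roles, the annotation version and the strandedness are not given in the sources used here. The summary rows of the counts stayed out of library sizes and tests.

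A single edgeR 4.0.16 fit (R 4.3.3, statmod 1.5.0, limma 3.58.1) covered the 12 libraries. It used filterByExpr by group, TMM scaling and the quasi-likelihood test in its robust form, with group as the only factor and Benjamini-Hochberg adjustment over 14770 genes, called below 0.05. SE was derived from the F statistic of the test, as the size of the log2 difference divided by the root of F, and levels are CPM with TMM as mean ± SD. Intervals are 95% intervals of single coefficients. The fit was checked on simulated counts. Cdt1 reads per Gmnn read, and shares of Mcm2 to Mcm7 per kilobase, were tested by two-sided exact permutation over libraries. Within groups, replicate libraries differed beyond sampling noise (chi-square per degree of freedom 4.40 to 148), so all 12 were counted. Counting error is small for most members, and the smallest count was 16.

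The 10 members, the gene lists and the tests were chosen with earlier results of these data known. Named beside the members are, per list and direction in consecutive comparisons, up to 2 called genes with the largest fold and at least 5 CPM in the higher group. Also named are Mki67, E2f1 in Stage1 against MEF, and the 5 genes most like the members' mean. Mcidas was not analysed here, and Gmnc did not pass the filter. Alternatives were RLE and library-total scaling, leaving out structural RNA genes, no filter, a filter of 1 CPM in 3 libraries, DESeq2 1.42.0, a replicate block, only the 2 groups compared and each library left out. Principal transcript lengths and the 9 libraries other than MEF were added after seeing the data.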

Additional observations from a re-analysis of the deposited data

How the results depend on the processing

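All counts of members called against MEF held under every alternative run, and no called difference of a member reversed. For Stage2 against Stage1, the number of members called lower was 3 and became 1 under RLE scaling, library totals, structural RNA genes left out, no filter, and the replicate block, and 5 with only the 2 groups compared. It ran from 1 to 5 with single libraries left out. Of all tested genes, 3551 of 13446 were called lower with only the 2 groups and 1678 of 14770 with library totals. For iPSC against Stage2, the number of members called higher was 4 and became 2 with library totals and 7 with only the 2 groups. It ran from 1 to 5 with single libraries left out. Of all tested genes, 882 of 14770 were called higher with library totals and 2307 of 13733 with only the 2 groups. For iPSC against Stage1, the number of members called higher was 1 and became 3 with only the 2 groups, where 1 member was also called lower. It ran from 0 to 1 with single libraries left out. With only the 2 groups, 3823 of 13268 tested genes were called higher and 3397 lower. The cause of these shifts was not tested.

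Of the uncalled log2 differences, those of Stage2 against Stage1 turned positive with library totals for Mcm2 (0.1146), Mcm3 (0.04676), Mcm4 (0.004458) and Mcm6 (0.1617), and that of Mcm6 also with RLE (0.01593), only the 2 groups (0.0009954) and DESeq2 (0.01473). With library totals, Mcm4 turned to -0.002793 for iPSC against Stage2, and Mcm4 (0.001665), Mcm7 (0.04494) and Gmnn (0.01432) turned positive for iPSC against Stage1. There, Mcm7 ran from -0.1183 to 0.03511 with single libraries left out. Library totals moved the share of higher calls among all genes from 51.06% to 70.58% for Stage2 against Stage1 and from 50.94% to 34.05% for iPSC against Stage2. They also moved the number lower at Stage2 from 2921 to 1678, and the number higher in iPSC than at Stage2 from 1360 to 882. With only the 2 groups, 2307 genes were higher and 2647 lower in iPSC than at Stage2, beside 1360 and 1310.

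With single libraries left out, the exact permutation p of the Cdt1 to Gmnn ratio ran from 0.01377 to 0.6829. The adjusted exact permutation p of the subunit shares ran from 0.006494 to 0.04831 for Mcm2, 0.02123 to 0.04831 for Mcm3, 0.004091 to 0.2029 for Mcm4, 0.01104 to 0.2597 for Mcm5, 0.02571 to 0.2606 for Mcm6 and 0.003117 to 0.01169 for Mcm7. The lowest p came without MEF replicate 2 for Mcm4, without MEF replicate 1 for Mcm5 and without iPSC replicate 1 for Mcm6. Over the 9 libraries other than MEF it was 0.2143 for Mcm2, 0.85 for Mcm3 and 0.08571 for Mcm7. Nothing in the labels pairs the libraries by replicate number. Deviations of same-numbered libraries correlated at -0.0675 to 0.197, above 0.1 in 3 of 18 pairs, beside 0 of 36 differently numbered pairs. All 9 same-numbered pairs among Stage1, Stage2 and iPSC were positive. Stage2 replicate 2, however, correlated better with iPSC replicate 1 (0.0742) than with iPSC replicate 2 (0.0107). Pairing by replicate number is therefore possible but not established. The main edgeR fit and the permutation tests took no account of it. With the replicate block, Gmnn was the 1 member called lower at Stage2, and Mcm10 and Cdc6 were not called.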
